A study of Arabidopsis thaliana with 24 samples.

Results

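The glucosinolate pathway was examined as 39 loci of *Arabidopsis thaliana*, taken by locus identifier from the 33681 genes of an RNA-seq table: 6 MYB regulators, 8 chain elongation genes, 15 genes of the core pathway, 8 side chain genes and 2 myrosinases. RNA came from 14-day-old seedlings of the Col-0 background grown in short days, with 3 libraries for each of 8 genotypes. BCL7A and BCL7B are small subunits of the plant SWI/SNF chromatin remodelling complexes, and BRM is an ATPase of these complexes. The genotypes were WT, *bcl7a*, *bcl7b*, the *bcl7a bcl7b* double mutant, *brm-3*, *brm-1*, *brm-1 bcl7a bcl7b* (the *brm-1* triple mutant) and *brm-3 bcl7a bcl7b* (the *brm-3* triple mutant). Every mutant allele is a T-DNA insertion, *brm-3* being a hypomorphic and *brm-1* a null allele of *BRM*. The labels carry *bcl7a bcl7b* also under the name *brip3 brip4*, and they do not say how many seedlings were pooled for a library. Of the 39 genes, 38 reached a normalized count of 10 in 3 or more libraries and were tested. The remaining gene, *AOP3* (AT4G03050), was listed at 0 in all libraries of WT, *bcl7a*, *bcl7b*, *bcl7a bcl7b* and *brm-3*, and reached 13.1 at most, in a library of the *brm-3* triple mutant.

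Glucosinolates are sulfur-rich defence compounds of the Brassicales, made from amino acids. In the aliphatic branch methionine is first lengthened in the plastid, and in the indole branch tryptophan enters the core pathway directly. The core pathway turns the amino acid into an aldoxime, activates it, conjugates it with glutathione, cleaves the conjugate to a thiohydroximate, and adds glucose and sulfate. MYB28, MYB29 and MYB76 activate the aliphatic genes, and MYB34, MYB51 and MYB122 the indole genes, together with bHLH proteins of the MYC2 family. Myrosinases, stored apart in myrosin cells and guard cells, hydrolyse glucosinolates when tissue is damaged. The division of the members into aliphatic (25 genes tested), indole (8), shared (3) and myrosinase genes (2) was made from textbook knowledge after the values had been seen.

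The 250 bases before the annotated start are printed for 2 aliphatic regulators, for *MYB51*, which was called in *bcl7b*, and for 2 core genes with a G-box. They are written 5′ to 3′ on the strand of the gene, from the RefSeq annotation of assembly TAIR10.1. Capitals mark the G-box CACGTG, the related letters CACATG, or the core GAGAC of the sulfur-response element, each searched on both strands, so that CATGTG and GTCTC are the last pair read from the other strand.
*MYB28* (chr5:24691188-24691437, minus strand): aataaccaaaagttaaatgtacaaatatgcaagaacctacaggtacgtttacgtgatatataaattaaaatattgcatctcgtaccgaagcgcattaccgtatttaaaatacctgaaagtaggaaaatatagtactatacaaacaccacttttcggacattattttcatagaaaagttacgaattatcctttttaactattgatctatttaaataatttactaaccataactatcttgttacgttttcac
*MYB29* (chr5:2446419-2446668, plus strand): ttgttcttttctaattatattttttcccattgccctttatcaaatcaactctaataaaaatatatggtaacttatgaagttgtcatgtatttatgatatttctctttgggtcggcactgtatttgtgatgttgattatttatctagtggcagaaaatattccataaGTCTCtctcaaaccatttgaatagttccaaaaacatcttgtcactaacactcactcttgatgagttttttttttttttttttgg
*MYB51* (chr1:6389149-6389398, plus strand): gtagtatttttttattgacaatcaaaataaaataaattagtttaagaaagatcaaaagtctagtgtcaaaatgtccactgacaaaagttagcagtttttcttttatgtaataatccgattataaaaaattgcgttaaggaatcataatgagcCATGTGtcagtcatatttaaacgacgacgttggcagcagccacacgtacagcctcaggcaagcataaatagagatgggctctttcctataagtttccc
*SUR1* (chr2:8880441-8880690, minus strand): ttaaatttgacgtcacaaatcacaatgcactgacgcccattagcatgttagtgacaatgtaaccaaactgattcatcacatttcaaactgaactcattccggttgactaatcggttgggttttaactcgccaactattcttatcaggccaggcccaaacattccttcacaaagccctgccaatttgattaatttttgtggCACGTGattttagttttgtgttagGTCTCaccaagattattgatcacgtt
*CYP83A1* (chr4:7992430-7992679, minus strand): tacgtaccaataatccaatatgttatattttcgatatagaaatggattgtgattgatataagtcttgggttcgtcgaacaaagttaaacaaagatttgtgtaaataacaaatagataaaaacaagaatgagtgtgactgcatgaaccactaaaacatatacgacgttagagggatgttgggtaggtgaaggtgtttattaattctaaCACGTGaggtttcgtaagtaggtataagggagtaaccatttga
Over the 39 members, 3 windows held CACGTG (7.69%; *IPMI LSU1*, *CYP83A1* and *SUR1*), against 6.49% of 27438 windows of the same length in the annotation. CACATG was present in 3 windows (*MYB51*, *FMO GS-OX1* and *AOP2*), against 11.1% of all windows, and GAGAC in 10 (25.6%), against 25.8%. *MYB28*, which rose in every mutant that lacked both BCL7 proteins or carried a *brm* allele, held none of the 3 in its window. These shares are a description of letters and were not tested.

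The libraries fell into 2 sets by composition. Among the 9 WT, *bcl7a* and *bcl7b* libraries the normalized counts summed to 29.9 M to 40.9 M (M for mega) and the 10 highest genes took 26.8% to 33.6% of them, whereas in the other 15 libraries the sums were 16.6 M to 22.1 M and the shares 7.87% to 13.7%. Each comparison of WT with *bcl7a bcl7b* or a *brm* genotype crosses these sets, and the difference in composition and the genotype cannot be told apart in it. The comparisons of a triple mutant with its *brm* parent, of *brm-1* with *brm-3* and of *brm-1* with *bcl7a bcl7b* lie within the second set. Replicates 1 and 3 of *bcl7a bcl7b* differed by less than the sampling noise, taking the values as counts: their squared differences averaged 0.0966 of the counting variance, against 13.4 to 145 in the other 23 replicate pairs. They were averaged and counted as 1 sample, so that n = 2 for *bcl7a bcl7b* and n = 3 for every other genotype. *BCL7B* was at 382, 383 and 479 in WT and was listed at 0 in every library of *bcl7b*, *bcl7a bcl7b* and the *brm-1* triple mutant, and in the *brm-3* triple mutant at 0 in replicates 1 and 2 and at 23.97 in replicate 3. *BRM* was at 111, 180 and 349 in WT and at 35.2, 44.8 and 31.2 in *brm-1*. *BCL7A* was low in WT (0, 18.1 and 30.1), which gave no check of the *bcl7a* and *bcl7a bcl7b* labels against WT. It was at 71.3, 91.6 and 53.0 in *brm-3* against 0 in all libraries of its triple mutant, and at 107, 85.8 and 90.1 in *brm-1* against 5.05, 3.82 and 0 in its triple mutant. In seedlings, fewer cells of a type and less RNA per cell cannot be told apart.

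Of the 25 aliphatic genes tested, 16 rose relative to WT in *bcl7a bcl7b*, 9 in *brm-3* and 17 in *brm-1*. In the *brm-3* triple mutant 19 rose, and in the *brm-1* triple mutant all 25. Of all genes tested, 11.9%, 23.5%, 28.9%, 30.8% and 26.9% rose in these genotypes, in the order given. The branches were set after the values had been seen, and each of these comparisons crosses the 2 sets of libraries. The largest number of members rose where BCL7A, BCL7B and BRM were all lost. A gene was called at a Benjamini-Hochberg adjusted p under 0.05 over all 21596 genes tested and an absolute log2 fold change above 0.6 (limma on log2 of the normalized count + 1). In *bcl7a bcl7b*, 21 of the 38 members rose and 1 fell relative to WT, against 11.9% and 10.2% of all genes tested. *brm-3* raised 13 and lowered 7, against 23.5% and 16.5%, and *brm-1* raised 21 and lowered 3, against 28.9% and 19.2%. In the *brm-3* triple mutant, 24 rose and 2 fell, against 30.8% and 22.8%. In the *brm-1* triple mutant, 33 rose and 1 fell, against 26.9% and 18.3%. The share of members that rose was thus above the background in these genotypes, by less in *brm-3* than in the other 4. With libraries rescaled to the same total, the median of all genes moved by 0.79 to 0.96 in these 5 genotypes. *brm-3* then had 23 members higher and 2 lower, so that its split depended on the scale. Of all 21596 genes, 10909 were then called as higher in *brm-3* and 896 as lower. The same rescaling gave 34 higher and 0 lower in *bcl7a bcl7b*, 29 and 1 in *brm-1*, 34 and 0 in the *brm-3* triple mutant, and 35 and 0 in the *brm-1* triple mutant, so that a gene given below as not called against WT may be called as higher on that scale. Over all genes it called 10848 as higher in *bcl7a bcl7b*, 11161 in *brm-1*, 12045 in the *brm-3* triple mutant and 11685 in the *brm-1* triple mutant. A call as higher was thus common over all genes on that scale.

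The median log2 fold change of the members was 1.24 in *bcl7a bcl7b*, 0.06 in *brm-3*, 1.5 in *brm-1*, 1.69 in the *brm-3* triple mutant and 2.22 in the *brm-1* triple mutant. Over all genes tested the median lay between 0.19 and 0.35 in these 5 genotypes. All these comparisons share the same 3 WT libraries, so their likeness is not independent evidence. WT replicate 1 stood apart, with 16191 genes at 0 against 13250 and 13368 in WT replicates 2 and 3. Its log2 ratios to replicates 2 and 3 had an SD of 1.459 and 1.515, against 0.8865 between those. It enters every difference from WT. The count of members higher in *bcl7a bcl7b* was 16 to 21 on leaving out 1 library at a time. It was 12 without the averaged pair, and 4 when only WT and *bcl7a bcl7b* entered the model.

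**Figure D1:**
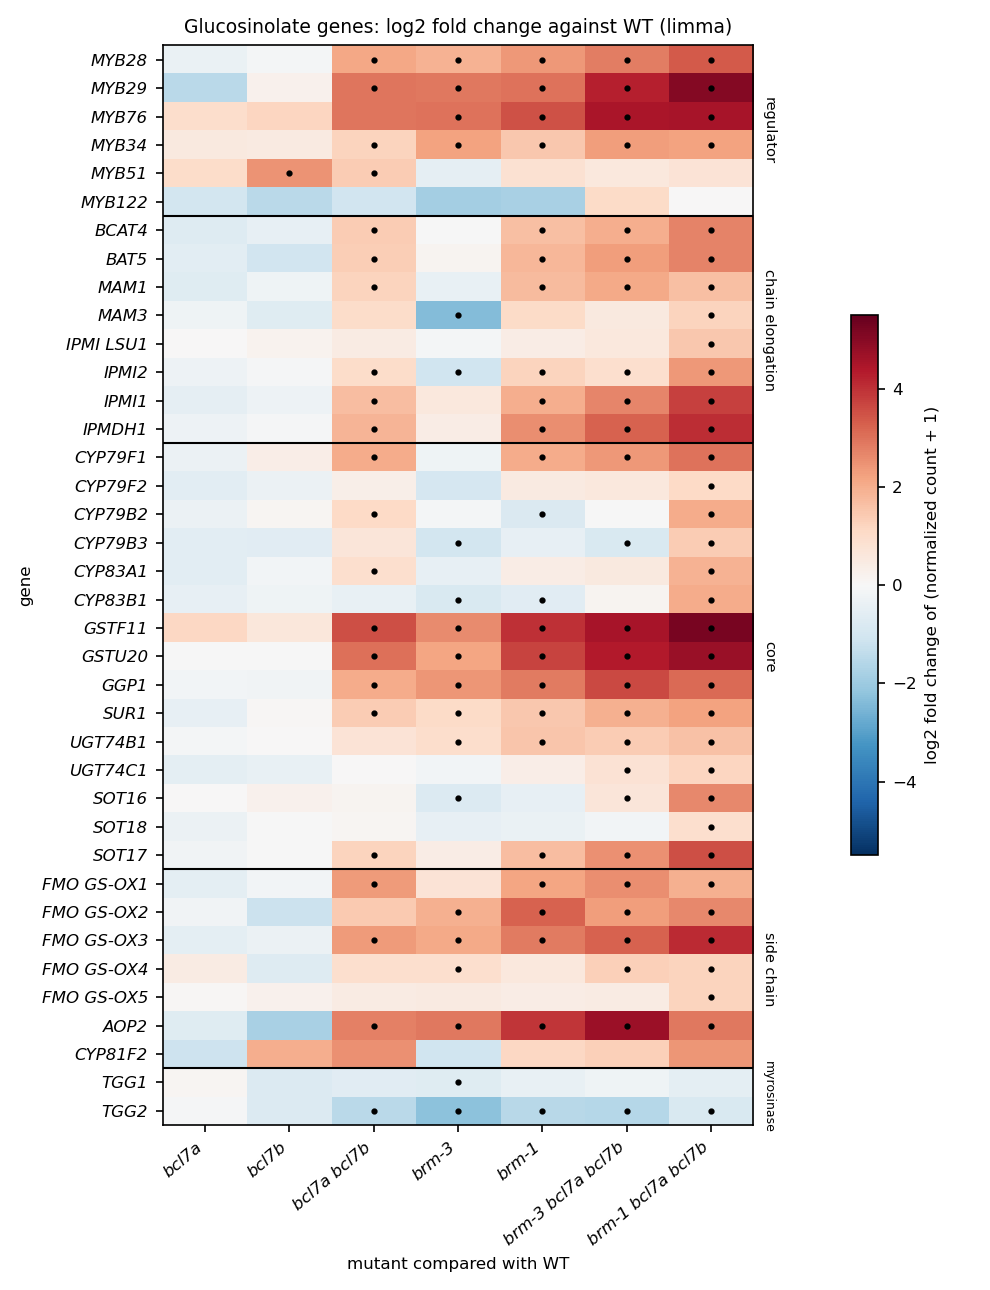
Log2 fold change against WT (colour, red higher and blue lower) of the 38 tested genes (rows, ordered by role) in the 7 mutants (columns), with a dot where the gene was called. The 2 left columns hold 1 dot, for *MYB51* in *bcl7b*, and the right column holds 34. Without the near-identical pair the third column would hold 12 red calls in place of 21.

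Among the aliphatic regulators, *MYB28* and *MYB29* rose in the 5 genotypes that lacked both BCL7 proteins or had a *brm* allele, and *MYB76* rose in 4 of them, all but *bcl7a bcl7b*. *MYB28* (AT5G61420) stood at 297, 197 and 171 normalized counts in WT, and between 146 and 270 in *bcl7a* and *bcl7b*. It was at 874, 992 and 882 in *bcl7a bcl7b*, at 974, 744 and 763 in *brm-3*, and at 1215, 1183 and 989 in *brm-1*. In the *brm-3* triple mutant it reached 1576, 1688 and 1353, and in the *brm-1* triple mutant 2351, 1929 and 2496. All 15 libraries lay above every library of WT, *bcl7a* and *bcl7b*, and both triple mutants lay above their *brm* parents. The log2 fold changes were 2.11 ± 0.24 (SE) in *bcl7a bcl7b* (adjusted p = 2.3e-06), 1.92 ± 0.21 in *brm-3* (3.1e-07), 2.38 ± 0.21 in *brm-1* (6.6e-09), 2.82 ± 0.21 in the *brm-3* triple mutant (2.6e-10) and 3.37 ± 0.21 in the *brm-1* triple mutant (2.6e-11).

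*MYB29* (AT5G07690) had 18.6, 38.9 and 5.15 in WT, 160, 106 and 149 in *bcl7a bcl7b*, 160, 82.6 and 142 in *brm-3*, and 149, 127 and 120 in *brm-1*. The triple mutants were higher still, with 338, 363 and 269 in the *brm-3* triple mutant and 574, 536 and 564 in the *brm-1* triple mutant, and no library of the 5 genotypes overlapped with WT. Its rise was 2.94 ± 0.88 in *bcl7a bcl7b* (adjusted p = 0.019), a call lost without WT replicate 3, without *bcl7a bcl7b* replicate 2 or without the averaged pair (0.060 to 0.13). It rose by 2.88 ± 0.79 in *brm-3* (0.0054), 2.97 ± 0.79 in *brm-1* (0.0033), 4.25 ± 0.79 in the *brm-3* triple mutant (9e-05) and 5.05 ± 0.79 in the *brm-1* triple mutant (1.6e-05). *MYB76* (AT5G07700), the neighbour of *MYB29* on chromosome 5, was near the detection limit in WT (0, 4.47 and 0). It had 21.6, 6.91 and 22.3 in *bcl7a bcl7b* and 32, 23.1 and 9.42 in *brm-1*, and 54.6, 37 and 32.1 in the *brm-1* triple mutant. It was called in *brm-3* (adjusted p = 0.018), *brm-1* (0.005) and both triple mutants (5.3e-04 and 6.1e-04), and was not called in *bcl7a bcl7b* (0.058).

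Of the indole regulators, *MYB34* was called in all 5 of these genotypes, *MYB51* in *bcl7b* and *bcl7a bcl7b*, and *MYB122* in none. *MYB34* (AT5G60890) had 145, 402 and 257 in WT, 764, 446 and 762 in *bcl7a bcl7b*, 1179, 1204 and 1027 in *brm-3*, and 726, 699 and 665 in *brm-1*. With 1267, 1184 and 1169 in the *brm-3* triple mutant and 1341, 1133 and 1012 in the *brm-1* triple mutant, all 15 libraries were above WT. It rose by 1.24 ± 0.29 in *bcl7a bcl7b* (adjusted p = 0.0034; 0.11 without the averaged pair), and by 2.20 ± 0.26 in *brm-3* (6.2e-07), 1.49 ± 0.26 in *brm-1* (4.9e-05), 2.29 ± 0.26 in the *brm-3* triple mutant (1.2e-07) and 2.22 ± 0.26 in the *brm-1* triple mutant (2.8e-07).

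*MYB51* (AT1G18570) was the only member called in a single mutant. It had 151, 103 and 139 in WT and 598, 723 and 897 in *bcl7b*, a rise of 2.49 ± 0.40 (adjusted p = 0.0014), with no overlap between the libraries. *bcl7a* had 220, 188 and 442, above WT in all 3 libraries (1.02 ± 0.40, adjusted p = 0.31). In *bcl7a bcl7b* the values were 686, 176 and 666, the high values being the averaged pair, and the rise of 1.41 ± 0.44 (adjusted p = 0.025) was 0.44 (0.58) without that pair. In *brm-3* it was at 80, 141 and 66.5, and in *brm-1* at 215, 222 and 256. Neither was called against WT (adjusted p = 0.33 and 0.087), nor were the triple mutants (0.22 for the *brm-3* triple mutant and 0.13 for the *brm-1* triple mutant), whereas rescaling called *brm-1* and both triple mutants (1.60 to 1.66). *MYB122* (AT1G74080) was low and scattered, with 32.6, 2.09 and 5.91 in WT and at most 27.6 elsewhere, and was called in none of the 7 mutants, with no unadjusted p under 0.05 among them.

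**Figure D2:**
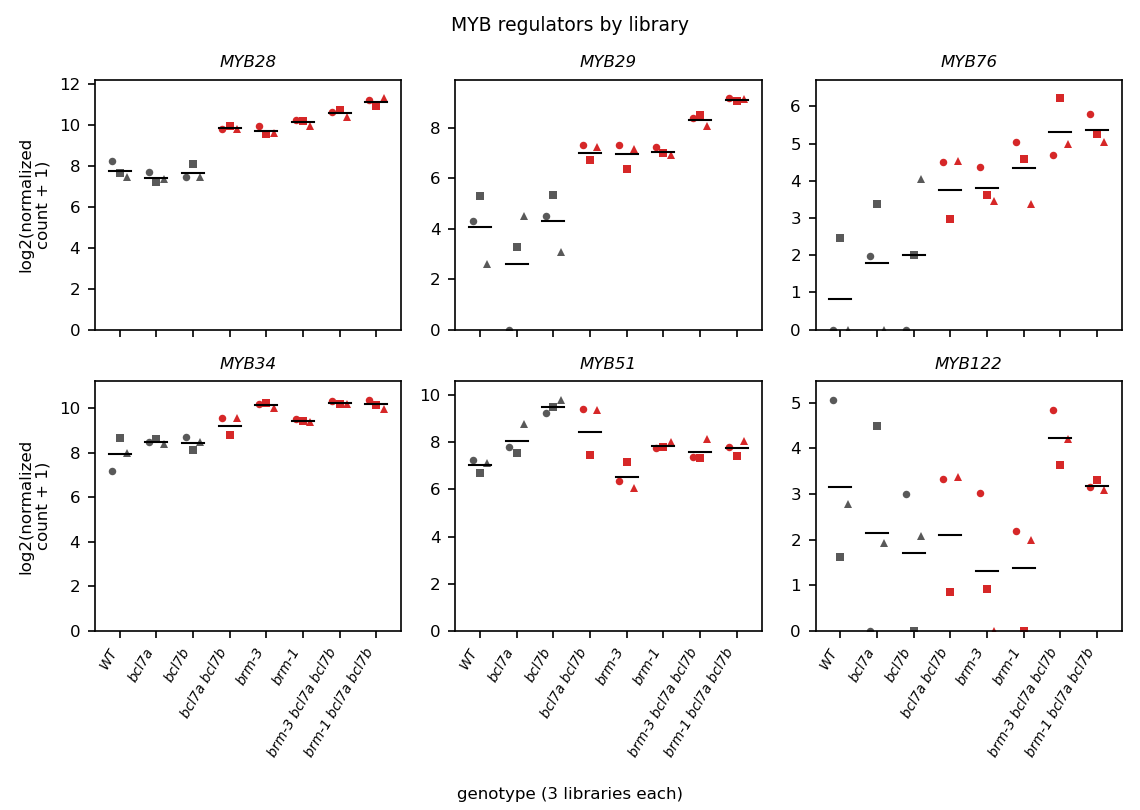
Log2 of the normalized count + 1 (y axis) of the 6 MYB regulators in the 8 genotypes (x axis). Circles, squares and triangles are replicates 1, 2 and 3, grey for WT, *bcl7a* and *bcl7b* and red for the other genotypes, and the line is the mean, with the near-identical *bcl7a bcl7b* pair counted as 1. *MYB28* is above WT in all 15 red libraries, whereas *MYB51* is highest in *bcl7b*.

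Chain elongation separated the hypomorphic from the null *brm* allele. These steps lengthen the side chain of methionine, and 6 of its 8 genes rose in *bcl7a bcl7b* and in *brm-1*, 6 in the *brm-3* triple mutant and 8 in the *brm-1* triple mutant. Of all genes, 11.9%, 28.9%, 30.8% and 26.9% rose in these genotypes. In *brm-3*, in which *MYB28* and *MYB29* were raised, 0 of the 8 rose (0 also had an unadjusted p under 0.05 in that direction) and 2 fell, against 23.5% and 16.5% of all genes. The median of the 8 was -0.07 in *brm-3* and 1.68 in *brm-1*. *brm-1* exceeded *brm-3* in 7 of the 8, a comparison within 1 set of libraries. Rescaled to the same total, which moves all genes up together, 5 of the 8 were called as higher than WT in *brm-3* (*IPMI1*, 1.48; *IPMDH1*, 1.30; *BAT5*, 1.03; *BCAT4*, 0.87; *IPMI LSU1*, 0.79), while the difference between the *brm* alleles kept its calls in all 7.

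*BCAT4* (AT3G19710), the aminotransferase that deaminates methionine, had 1241, 1520 and 664 in WT, 3384, 2440 and 3370 in *bcl7a bcl7b*, 1213, 831 and 1169 in *brm-3*, and 3509, 3368 and 3223 in *brm-1*. It had 4249, 4841 and 4050 in the *brm-3* triple mutant and 6071, 8589 and 6783 in the *brm-1* triple mutant. *brm-3* thus overlapped with WT, and the other 4 genotypes did not. The difference from WT was -0.03 ± 0.22 in *brm-3* (adjusted p = 0.93), 1.41 ± 0.25 in *bcl7a bcl7b* (2.8e-04), 1.64 ± 0.22 in *brm-1* (2.1e-06) and 2.71 ± 0.22 in the *brm-1* triple mutant (1.3e-09). *brm-1* was above *brm-3* by 1.67 ± 0.22 (2.4e-05).

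*MAM1* (AT5G23010) and *MAM3* (AT5G23020) encode the methylthioalkylmalate synthases, which set the length of the chain, and lie next to each other on chromosome 5 (7703041 to 7706973 and 7718118 to 7721866 in TAIR10.1). *MAM1* had 817, 1286 and 1006 in WT, 721, 652 and 979 in *brm-3*, 3629, 3652 and 2909 in *brm-1*, and 2604, 2208 and 2599 in *bcl7a bcl7b*. *MAM3* had 103, 311 and 310 in WT, 23, 97.4 and 29.8 in *brm-3*, 404, 478 and 475 in *brm-1*, and 226, 813 and 228 in *bcl7a bcl7b*. *MAM1* overlapped with WT in *brm-3* (-0.40 ± 0.21, adjusted p = 0.14), whereas every *brm-3* library of *MAM3* was below WT (-2.37 ± 0.48, 4.2e-04). Both were higher in *brm-1* than in *brm-3*, *MAM1* by 2.13 ± 0.21 (6.9e-07) and *MAM3* by 3.44 ± 0.48 (5.1e-05). *MAM1* rose in *bcl7a bcl7b* (1.23 ± 0.24, 8.1e-04) and *brm-1* (1.73 ± 0.21, 7.8e-07), and *MAM3* was called in neither (0.19 and 0.070). Losing BCL7A and BCL7B in *brm-3* raised *MAM3* to 292, 243 and 429, by 2.91 ± 0.48 over *brm-3* (1.3e-04), and *MAM1* to 3952, 4243 and 4712 (2.47 ± 0.21, 4.1e-08).

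*IPMDH1* (AT5G14200), which decarboxylates the elongated chain, had the largest rise of these genes in *brm-1* and in both triple mutants. It stood at 233, 388 and 306 in WT, 484, 339 and 391 in *brm-3*, 976, 1237 and 982 in *bcl7a bcl7b* and 1906, 1923 and 1577 in *brm-1*. The triple mutants had 2814, 2399 and 3383 with *brm-3* and 4945, 5184 and 4912 with *brm-1*. Apart from *brm-3*, which overlapped with WT, each genotype lay above the one before it. The fold changes were 1.86 ± 0.23 in *bcl7a bcl7b* (adjusted p = 5.3e-06), 2.57 ± 0.20 in *brm-1* (9.8e-10), 3.23 ± 0.20 in the *brm-3* triple mutant (1.5e-11) and 4.05 ± 0.20 in the *brm-1* triple mutant (6.9e-13). Of its 31-base words, 15.2% also occur in *IPMDH3*, which stayed between 285 and 637 in all 24 libraries.

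The isopropylmalate isomerase subunits differed among themselves. The small subunit *IPMI1* (AT3G58990) rose by 1.69 in *bcl7a bcl7b*, 2.01 in *brm-1*, 2.68 in the *brm-3* triple mutant and 3.78 in the *brm-1* triple mutant. The small subunit *IPMI2* (AT2G43100) fell by 1.07 in *brm-3* (235, 238 and 462, against 632, 862 and 445 in WT, where the highest *brm-3* library overlaps) and rose by 1.23 in *brm-1* and 2.37 in the *brm-1* triple mutant. Rescaled to equal library totals, its *brm-3* difference was -0.18. The large subunit *IPMI LSU1* (AT4G13430), which also serves leucine synthesis, had 1363, 1942 and 2099 in WT and was called against WT only in the *brm-1* triple mutant (4929, 4892 and 4982; 1.48 ± 0.19, 1.4e-06), a restriction lost on rescaling, which also called it in *bcl7a bcl7b* (1.42), *brm-3* (0.79), *brm-1* (1.26) and the *brm-3* triple mutant (1.61). *BAT5* (AT4G12030), the plastid carrier of the 2-oxo acids, rose by 1.37 in *bcl7a bcl7b*, 1.84 in *brm-1*, 2.29 in the *brm-3* triple mutant and 2.71 in the *brm-1* triple mutant, and was at 0.14 ± 0.34 in *brm-3*.

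In the core pathway, *CYP79F1* rose in the same genotypes as most of the elongation genes, while *CYP79F2* and *CYP83A1* were called in fewer. *CYP79F1* (AT1G16410), which makes aldoximes from elongated methionine, had 306, 555 and 114 in WT, 166, 192 and 386 in *brm-3*, 1379, 883 and 1374 in *bcl7a bcl7b*, and 1124, 1306 and 947 in *brm-1*. It reached 1665, 1273 and 1258 in the *brm-3* triple mutant and 2055, 2328 and 1983 in the *brm-1* triple mutant. It overlapped with WT in *brm-3* (-0.22 ± 0.39, adjusted p = 0.69) and rose by 2.03 ± 0.44 in *bcl7a bcl7b* (0.0020), 2.05 ± 0.39 in *brm-1* (1.7e-04) and 2.97 ± 0.39 in the *brm-1* triple mutant (1.9e-06). Its tandem copy *CYP79F2* (AT1G16400) shares 7.65% of its 31-base words with it and had 203, 112 and 101 in WT. It was called against WT only in the *brm-1* triple mutant (296, 261 and 305; 1.11 ± 0.41, 0.029), and after rescaling also in *bcl7a bcl7b* (1.30), *brm-1* (1.31) and the *brm-3* triple mutant (1.61).

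*CYP83A1* (AT4G13770), which oxidises aliphatic aldoximes, had 2241, 2031 and 1349 in WT, 1222, 1240 and 1575 in *brm-3* and 2530, 2534 and 2186 in *brm-1*. It was at 3620, 3298 and 3633 in *bcl7a bcl7b*, above WT in every library (0.92 ± 0.20, adjusted p = 0.0020), and at 6095, 8181 and 6636 in the *brm-1* triple mutant (1.92 ± 0.18, 1.1e-08). *brm-1* overlapped with WT and was not called (0.40 ± 0.18, 0.068), though it was after rescaling (1.24).

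**Figure D3:**
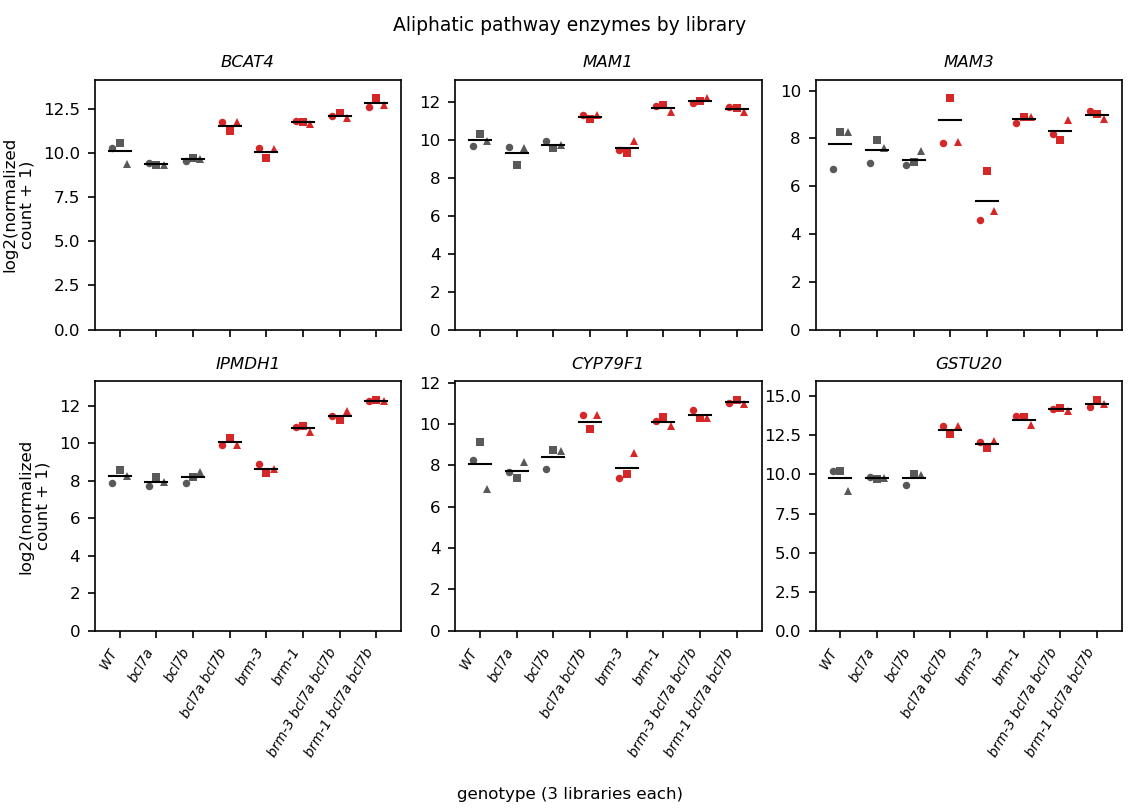
Log2 of the normalized count + 1 (y axis) of 6 aliphatic pathway genes in the 8 genotypes (x axis), with replicates 1, 2 and 3 as circles, squares and triangles, WT, *bcl7a* and *bcl7b* in grey, the others in red, and the line at the mean. In *brm-3* the first 5 genes were not above WT by the test (*BCAT4* and *IPMDH1* were after rescaling to the same total) and *MAM3* was below it, whereas *GSTU20* rose in *brm-3* by 2.18.

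The glutathione steps held some of the largest changes among the enzymes. *GSTU20* (AT1G78370), a glutathione transferase assigned to the aliphatic branch, had 1179, 1207 and 488 in WT, 8820, 6122 and 8762 in *bcl7a bcl7b*, 4281, 3374 and 4482 in *brm-3*, and 13533, 12818 and 9015 in *brm-1*. In the triple mutants it reached 18729, 19556 and 16794 with *brm-3* and 20257, 28221 and 23462 with *brm-1*. None of the 15 libraries overlapped with WT. The rises were 3.05 ± 0.30 in *bcl7a bcl7b* (adjusted p = 3.4e-07), 2.18 ± 0.27 in *brm-3* (1.2e-06), 3.71 ± 0.27 in *brm-1* (2.8e-10), 4.37 ± 0.27 in the *brm-3* triple mutant (1.1e-11) and 4.74 ± 0.27 in the *brm-1* triple mutant (4.3e-12). *GSTF11* (AT3G03190), the other transferase of the branch, was at 0, 134 and 57.8 in WT and at 253, 210 and 262 in *bcl7a bcl7b*, 359, 291 and 306 in *brm-1*, and 836, 762 and 625 in the *brm-1* triple mutant. Every library of these mutants lay above the highest WT library of *GSTF11*. The size of its fitted changes (3.55, 4.0 and 5.21) rests in part on the WT library listed at 0. Of its 31-base words, 93.7% also lie in the overlapping gene AT3G03200 on the other strand, which was listed at 49 at most.

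*GGP1* (AT4G30530), the peptidase that trims the glutathione conjugate in both branches, was at 955, 1139 and 644 in WT, 3309, 4065 and 3276 in *bcl7a bcl7b*, 4408, 5213 and 4855 in *brm-3*, and 7385, 7933 and 4559 in *brm-1*. It had 15631, 7319 and 11487 in the *brm-3* triple mutant and 7595, 8110 and 7371 in the *brm-1* triple mutant. All were above WT, by 2.04 ± 0.28 in *bcl7a bcl7b* (adjusted p = 2.6e-05), 2.44 ± 0.25 in *brm-3* (1.3e-07), 2.86 ± 0.25 in *brm-1* (5.9e-09), 3.62 ± 0.25 in the *brm-3* triple mutant (8.2e-11) and 3.11 ± 0.25 in the *brm-1* triple mutant (1.4e-09). The C-S lyase *SUR1* (AT2G20610), a single-copy step of both branches, rose by 1.38, 1.04, 1.5, 1.97 and 2.22 in the same order. It had 304, 402 and 258 in WT and 531, 662 and 779 in *brm-3*, which was the lowest of the 5 genotypes and still did not overlap with WT. *UGT74B1* (AT1G24100), the glucosyltransferase of both branches, had 191, 171 and 176 in WT, 347, 347 and 352 in *brm-3*, and 639, 597 and 367 in *brm-1*. It rose in *brm-3* (0.96), *brm-1* (1.53) and both triple mutants (1.41 and 1.60), and was not called in *bcl7a bcl7b* (0.75 ± 0.30, 0.076; 1.71 and called after rescaling). The 3 shared genes thus rose in *brm-3*, where *CYP79F1*, *CYP79F2*, *CYP79B2* and *CYP79B3* were not called as higher (after rescaling, *CYP79B2* was, by 0.77). That difference was not tested.

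*UGT74C1* (AT2G31790), the glucosyltransferase of the aliphatic branch, and the 3 sulfotransferases close the core pathway. *UGT74C1* was called only in the *brm-3* triple mutant (0.81 ± 0.23, adjusted p = 0.0043) and the *brm-1* triple mutant (1.19 ± 0.23, 1.7e-04), and after rescaling also in *brm-1* (1.22), *bcl7a bcl7b* (0.98) and *brm-3* (0.77). *SOT17* (AT1G18590), which prefers aliphatic substrates, had 151, 150 and 75.5 in WT, 415, 360 and 381 in *brm-1* and 1332, 1484 and 1353 in the *brm-1* triple mutant. It rose by 1.20, 1.68, 2.51 and 3.53 in *bcl7a bcl7b*, *brm-1*, the *brm-3* triple mutant and the *brm-1* triple mutant. *SOT18* (AT1G74090), also aliphatic, had 575, 764 and 724 in WT and was called against WT only in the *brm-1* triple mutant (1212, 1521 and 1200; 0.93 ± 0.21, 0.0011), and after rescaling also in *bcl7a bcl7b* (1.09) and the *brm-3* triple mutant (0.86).

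Of the 8 indole genes, 3 rose in *bcl7a bcl7b*, 1 in *brm-3*, 1 in *brm-1*, 2 in the *brm-3* triple mutant and 5 in the *brm-1* triple mutant, while 3 fell in *brm-3*, 2 in *brm-1* and 1 in the *brm-3* triple mutant. Of all genes, 11.9%, 23.5%, 28.9%, 30.8% and 26.9% rose in the first order, and 16.5%, 19.2% and 22.8% fell in the second. In *brm-3*, *brm-1* and the *brm-3* triple mutant the indole share that rose was thus below that of all genes. No test compared the branches. *CYP79B2* (AT4G39950) and *CYP79B3* (AT2G22330) turn tryptophan into indole-3-acetaldoxime, *CYP83B1* (AT4G31500) carries this on, and *SOT16* (AT1G74100) is the sulfotransferase that prefers indole substrates. *CYP83B1* had 2045, 1733 and 1513 in WT, 1276, 1376 and 1282 in *bcl7a bcl7b*, 953, 844 and 1117 in *brm-3*, 1093, 1047 and 1229 in *brm-1*, 2641, 1168 and 2291 in the *brm-3* triple mutant, and 6844, 8045 and 6635 in the *brm-1* triple mutant. *SOT16* had 923, 1189 and 988 in WT, 1126, 1192 and 1121 in *bcl7a bcl7b*, 592, 508 and 771 in *brm-3*, 855, 648 and 745 in *brm-1*, 2217, 1135 and 1750 in the *brm-3* triple mutant, and 5846, 7399 and 6189 in the *brm-1* triple mutant. For both, the *brm-1* triple mutant libraries lay far above every other library of the series.

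Adding *bcl7a bcl7b* to *brm-1* raised *CYP83B1* by 2.67 ± 0.23 (adjusted p = 1.7e-08), *SOT16* by 3.11 ± 0.21 (8.8e-10), *CYP79B2* by 2.84 ± 0.28 (1.1e-07) and *CYP79B3* by 1.84 ± 0.25 (6.4e-06). In the WT background the same loss changed *CYP83B1* by -0.40 ± 0.25 (0.27) and *SOT16* by 0.17 ± 0.24 (0.64). It changed *CYP79B2* by 1.09 ± 0.31 (0.014; 0.21 without the averaged pair) and *CYP79B3* by 0.65 ± 0.28 (0.094). The difference between the effects, tested as an interaction, was 3.07 ± 0.34 for *CYP83B1* (9.2e-07), 2.94 ± 0.32 for *SOT16* (6.7e-07), 1.75 ± 0.42 for *CYP79B2* (0.0027) and 1.18 ± 0.37 for *CYP79B3* (0.018). Its call for *CYP79B2* and *CYP79B3* was lost when the libraries were rescaled to the same total (0.87 and 0.30), and that for *CYP83B1* and *SOT16* was not (2.19 and 2.06). In *brm-1* alone *CYP83B1* was at -0.64 and *CYP79B2* at -0.79 relative to WT, both called, and these values were 0.20 and 0.045 after that rescaling, so that their direction depended on the scale. The call of *CYP83B1* in *brm-1* was also lost without WT replicate 1 (-0.53) or *brm-1* replicate 1 or 2 (-0.63 and -0.59), and that of *CYP79B2* without WT replicate 1 or 3 or *brm-1* replicate 3 (-0.72 to -0.67). In *brm-3* the values of *CYP83B1* (-0.86), *CYP79B3* (-1.01) and *SOT16* (-0.74) became 0.04, -0.11 and 0.16. In the *brm-3* triple mutant the gain over *brm-3* was 0.99 ± 0.23 for *CYP83B1* (0.0028) and 1.41 ± 0.21 for *SOT16* (4.1e-05), and *CYP79B2* and *CYP79B3* differed by 0.13 and 0.15 and were not called.

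In *CYP79B2* the libraries read 410, 264 and 385 in WT, 934, 589 and 925 in *bcl7a bcl7b*, 206, 218 and 178 in *brm-1*, and 1215, 1986 and 1239 in the *brm-1* triple mutant. *CYP79B3* had 805, 877 and 999 in WT, 1694, 1151 and 1712 in *bcl7a bcl7b*, 646, 714 and 614 in *brm-1*, and 1819, 3233 and 2205 in the *brm-1* triple mutant. Both genes were therefore above WT in every library of *bcl7a bcl7b* and of the *brm-1* triple mutant, and below it in every library of *brm-1*. *brm-1* was lower than *bcl7a bcl7b* by 1.88 ± 0.31 in *CYP79B2* (adjusted p = 1.7e-04) and by 1.09 ± 0.28 in *CYP79B3* (0.0066), within 1 set of libraries. Of the indole regulators, *MYB34* was also higher in the *brm-1* triple mutant than in *brm-1*, with no overlap between the libraries (0.73 ± 0.26, adjusted p = 0.034), a call lost without any one of 5 of the 6 libraries (0.065 to 0.12). *MYB51* differed there by -0.09 ± 0.40 (0.90).

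**Figure D4:**
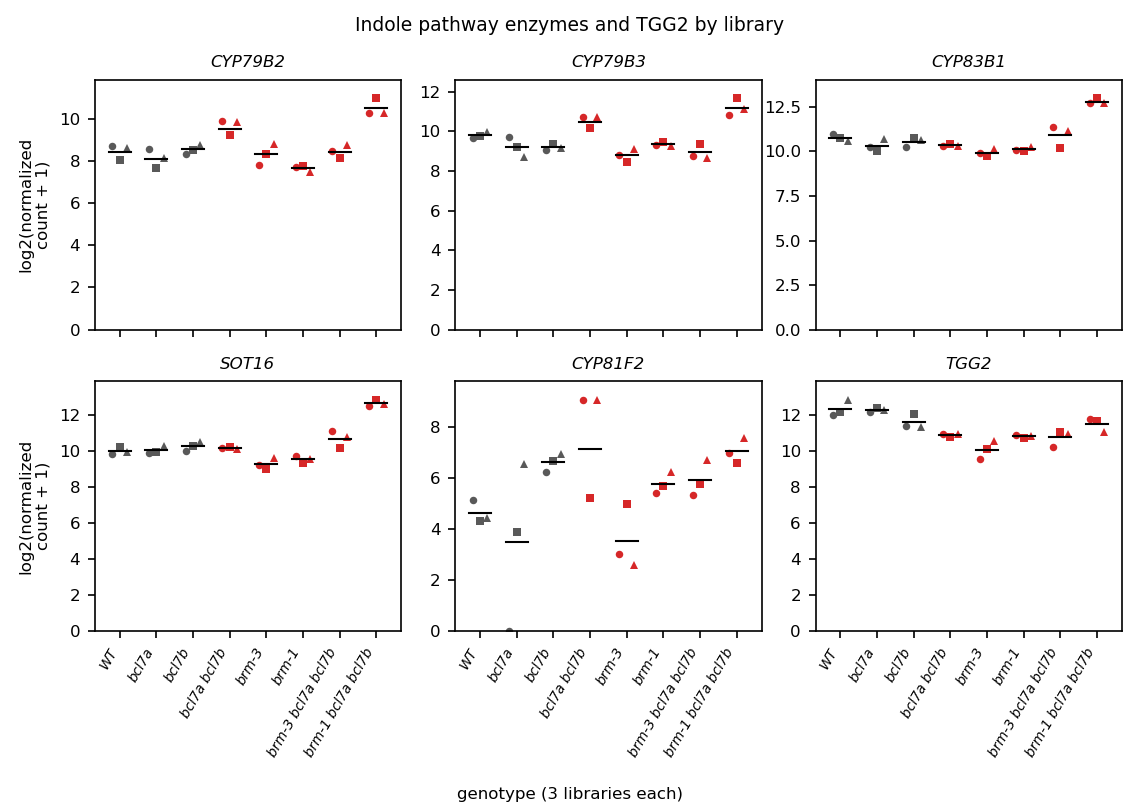
Log2 of the normalized count + 1 (y axis) of 5 indole pathway genes and the myrosinase gene *TGG2* in the 8 genotypes (x axis), with replicates 1, 2 and 3 as circles, squares and triangles, WT, *bcl7a* and *bcl7b* in grey, the others in red, and the line at the mean. *CYP83B1* and *SOT16* are highest in all 3 libraries of the *brm-1* triple mutant. *CYP81F2* is highest in the near-identical *bcl7a bcl7b* libraries, and the fall of *TGG2* in the *brm-1* triple mutant (-0.85) became 0.08 with libraries rescaled to the same total.

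The side chain genes modify the finished compound. *FMO GS-OX1* to *FMO GS-OX5* S-oxygenate aliphatic glucosinolates, *AOP2* makes the alkenyl form in accessions with a functional copy and is annotated as a transcribed pseudogene in the Col-0 reference, and CYP81F2 hydroxylates the indole ring. Of the 7 tested, 3 rose in *bcl7a bcl7b*, 4 in *brm-3*, 4 in *brm-1*, 5 in the *brm-3* triple mutant and 6 in the *brm-1* triple mutant, and 0 fell (0 also at an unadjusted p under 0.05). Of all genes, 11.9%, 23.5%, 28.9%, 30.8% and 26.9% rose in the same order, and 10.2% to 22.8% fell. *FMO GS-OX3* (AT1G62560) had 36.2, 88.1 and 30.7 in WT, 256, 224 and 248 in *bcl7a bcl7b*, 175, 185 and 243 in *brm-3*, 423, 327 and 283 in *brm-1*, and 929, 868 and 679 in the *brm-1* triple mutant. No library of these 4 genotypes overlapped with WT, and the rises were 2.34 ± 0.49 (adjusted p = 0.0016), 2.08 ± 0.44 (6.5e-04), 2.85 ± 0.44 (1.4e-05) and 4.12 ± 0.44 (9.4e-08).

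*AOP2* (AT4G03060) had 125, 44.4 and 12.6 in WT, 233, 368 and 223 in *bcl7a bcl7b*, 309, 373 and 276 in *brm-3*, and 807, 817 and 421 in *brm-1*. It reached 1356, 1034 and 1008 in the *brm-3* triple mutant and only 387, 444 and 192 in the *brm-1* triple mutant. It was 1 of 6 members with a negative fitted difference between the *brm-1* triple mutant and *brm-1* (-1.02 ± 0.74, adjusted p = 0.32). It rose by 2.77 ± 0.82 in *bcl7a bcl7b* (0.019), 2.90 ± 0.74 in *brm-3* (0.0031), 3.94 ± 0.74 in *brm-1* (1.3e-04), 4.72 ± 0.74 in the *brm-3* triple mutant (1.2e-05) and 2.91 ± 0.74 in the *brm-1* triple mutant (0.0024).

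*FMO GS-OX2* (AT1G62540) was highest in *brm-1* (543, 451 and 353, against 62, 65 and 24.4 in WT), a rise of 3.23 ± 0.58 (adjusted p = 7.5e-05), and was also called in *brm-3* (1.94) and in both triple mutants (2.32 and 2.62). *FMO GS-OX1* (AT1G65860) rose by 1.94 to 2.56 in every one of these genotypes except *brm-3* (0.77 ± 0.67), and its WT values of 92.6, 108 and 9.07 were widely spread. *FMO GS-OX4* (AT1G62570) rose in *brm-3* (0.92) and in the triple mutants (1.31 and 1.23). *FMO GS-OX5* (AT1G12140), for which 24.7% of the 31-base words occur in other genes, was called only in the *brm-1* triple mutant (549, 540 and 563, against 246, 248 and 213 in WT; 1.22 ± 0.19, 1.7e-05), and after rescaling also in *bcl7a bcl7b* (1.43), *brm-3* (1.41), *brm-1* (1.24) and the *brm-3* triple mutant (1.46). *CYP81F2* (AT5G57220) had 34.1, 18.8 and 20.7 in WT and 540, 36.5 and 543 in *bcl7a bcl7b*, and was called in none of the 7 mutants by limma, with an unadjusted p under 0.05 in 2 of them, though rescaling called it in *bcl7a bcl7b* (3.46) and the *brm-1* triple mutant (3.33). Both high values belong to the averaged pair, as in *MYB51*.

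Of the myrosinase genes, *TGG2* fell in all 5 genotypes and *TGG1* in *brm-3* alone on the deposited scale, while rescaling to the same total left only the falls of *TGG2* in *brm-3* and *brm-1*. *TGG2* (AT5G25980) had 3971, 4604 and 7282 in WT, 1961, 1753 and 1939 in *bcl7a bcl7b*, 731, 1095 and 1481 in *brm-3*, 1852, 1678 and 1824 in *brm-1*, 1182, 2137 and 1978 in the *brm-3* triple mutant, and 3408, 3177 and 2105 in the *brm-1* triple mutant. All 15 libraries lay below every WT library. It fell by 1.47 ± 0.30 (adjusted p = 0.0011), 2.27 ± 0.27 (6.4e-07), 1.52 ± 0.27 (6.1e-05), 1.58 ± 0.27 (3e-05) and 0.85 ± 0.27 (0.012) in that order. Rescaled to the same total, the last difference was 0.08 and those of *bcl7a bcl7b* and the *brm-3* triple mutant were -0.50 and -0.56 and not called, while the *brm-3* and *brm-1* calls stood. *TGG1* (AT5G26000) had 13172, 13791 and 22314 in WT and fell only in *brm-3* (11058, 8840 and 9930; -0.69 ± 0.23, 0.018), a difference that was 0.21 after rescaling and lost its call without WT replicate 3 (-0.44, 0.13) or *brm-3* replicate 2 (-0.61, 0.073). The 5 guard and myrosin cell markers were *FAMA*, *MYB60*, *HT1*, *KAT1* and *SLAC1*. Of these, 0 were called in *bcl7a bcl7b* (1 lower at an unadjusted p under 0.05), in *brm-1* (1 higher) and in the *brm-3* triple mutant (1 lower). In *brm-3* 1 rose and 1 fell (23.5% and 16.5% of all genes), and 3 fell in the *brm-1* triple mutant (18.3%). *FAMA* had 191, 168 and 83.9 in WT, 487, 399 and 361 in *brm-3*, and 81.2, 43.4 and 37.9 in the *brm-1* triple mutant. *KAT1* had 162, 98.8 and 38.4 in WT and 29, 46.8 and 21 in *brm-3*. The part of such cells in the *TGG2* values was not tested.

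Few members were called in the single mutants. In *bcl7a* 0 members were called in either direction, against 0.301% of all genes higher and 0.0509% lower. At an unadjusted p under 0.05, 2 members were higher and 5 lower. In *bcl7b* the call of *MYB51* was the only one higher, against 1.5% of all genes, and 0 were lower, against 0.574%, with 6 lower at an unadjusted p under 0.05. The median of the members was -0.32 in *bcl7a* and -0.13 in *bcl7b*.

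The difference between the *bcl7a bcl7b* effect and the sum of the 2 single effects was called as positive in 16 members and negative in 1, against 3.03% and 2.98% of all genes. It was 2.57 ± 0.32 for *MYB28* (adjusted p = 5.9e-05), 2.57 ± 0.33 for *BCAT4* (7.9e-05) and 3.07 ± 0.40 for *GSTU20* (1.0e-04). The single mutants and WT share a set of libraries and *bcl7a bcl7b* lies in the other, so that this difference and the sets cannot be told apart. The negative member was *MYB51* (-2.10 ± 0.59, 0.037), which was about as high in *bcl7b* as in 2 of the 3 *bcl7a bcl7b* libraries.

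Loss of BCL7A and BCL7B raised members in both *brm* backgrounds, within 1 set of libraries. Relative to *brm-3*, 19 members rose in the *brm-3* triple mutant and 0 fell, against 9.08% and 12.1% of all genes. Relative to *brm-1*, 20 rose in the *brm-1* triple mutant and 0 fell, against 14.2% and 15.3%. No member was lower in either comparison at an unadjusted p under 0.05. The medians were 1.28 and 1.01, and those over all genes were both -0.01. In *brm-3* the gain included all 8 elongation genes (median 2.12) and 10 of 15 core genes. In *brm-1* it included 5 elongation genes (median 1.06), 10 core genes, 3 regulators and 2 side chain genes. Counted by branch, 5 of the 8 indole genes were among these.

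*MAM1* and *GGP1* marked members that did not gain in *brm-1*. *MAM1* was at 3410, 3321 and 2909 in the *brm-1* triple mutant, against 3629, 3652 and 2909 in *brm-1* (-0.08 ± 0.21, adjusted p = 0.83), and *GGP1* differed by 0.26 ± 0.25 (0.49). *MYB28* rose by 1.0 ± 0.21 over *brm-1* (9.5e-04) and by 0.90 ± 0.21 over *brm-3* (0.0036). The *bcl7a bcl7b* effect in *brm-1* minus that in WT was called as positive in 6 members and as negative in 5, against 14.7% and 16.5% of all genes, so that both shares were near the background. The positive ones were the 4 indole genes named above, *SOT18* (1.19) and *TGG2* (2.13), and the negative ones were *MYB28* (-1.11), *MAM1* (-1.31), *GSTU20* (-2.02), *GGP1* (-1.79) and *AOP2* (-3.79). Without *bcl7a bcl7b* replicate 2 the calls of *MYB28* (-1.02), *AOP2* (-3.44) and *CYP79B3* (0.90) were lost, as was that of *CYP79B3* without replicate 2 of the *brm-1* triple mutant (0.95). With libraries rescaled to the same total 3 members were positive and 16 negative, so that the split of this interaction depended on the scale. Of all 21596 genes, 1022 were then positive and 7454 negative.

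The null allele exceeded the hypomorph in 13 members and was lower in 0 (2 at an unadjusted p under 0.05), against 5.34% and 4.6% of all genes. The 13 were 7 elongation genes, 5 core genes (*CYP79F1*, 2.27; *CYP79F2*, 1.42; *CYP83A1*, 0.85; *GSTU20*, 1.53; *SOT17*, 1.27) and *MYB51* (1.33). *MYB28* and *MYB29* differed by 0.45 ± 0.21 (adjusted p = 0.21) and 0.09 ± 0.79 (0.97). The call of *MYB51* was lost without any of 5 of the 6 libraries, and that of *CYP79F2* likewise. Between *brm-1* and *bcl7a bcl7b*, 3 members were higher in *brm-1*, against 11.5% of all genes, and 2 were lower, against 9.84%. The higher ones were *IPMDH1* (0.71 ± 0.23, 0.027), *GGP1* (0.82 ± 0.28, 0.042) and *FMO GS-OX2* (1.81 ± 0.64, 0.047), and the lower ones *CYP79B2* and *CYP79B3*. The count of higher members was 0 without *brm-1* replicate 1 or 2 or the averaged pair. After rescaling to the same total there were 0 higher and 4 lower, against 2001 and 2543 of all 21596 genes.

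Other genes of the pathway were read from lists that hold no member. Of 18 tested genes of other synthesis steps and transport, 8 rose and 0 fell in *bcl7a bcl7b*, against 11.9% and 10.2% of all genes. In *brm-1* 6 rose and 4 fell, shares near those of all genes (28.9% and 19.2%), and in *brm-3* 6 rose and 2 fell (23.5% and 16.5%). In the *brm-3* triple mutant 8 rose and 6 fell (30.8% and 22.8%), and in the *brm-1* triple mutant 11 rose and 2 fell (26.9% and 18.3%). The APS kinases *APK1* and *APK2*, which provide activated sulfate, rose by 1.68 and 1.87 in *bcl7a bcl7b*, 2.43 and 2.17 in *brm-1*, and 3.51 and 3.50 in the *brm-1* triple mutant. *GTR1*, a glucosinolate importer, had 67, 68.6 and 102 in WT and 1475, 1336 and 890 in the *brm-1* triple mutant (3.94). Other genes of this list went down in *brm-1*, of which *CYP81F4* and *IGMT1* were named after their values were seen. *CYP81F4* had 1805, 1587 and 2338 in WT, 621, 439 and 403 in *brm-1*, and 3838, 3725 and 3832 in *bcl7a bcl7b*. *IGMT1* had 1885, 1725 and 1996 in WT and 584, 511 and 353 in *brm-1*. Among 10 genes of sulfate uptake and assimilation, 2 rose in *bcl7a bcl7b*, 4 in *brm-3*, 6 in *brm-1* and 7 in each triple mutant, while 2 fell in *brm-3* and 1 in each triple mutant. Of all genes, 11.9%, 23.5%, 28.9%, 30.8% and 26.9% rose in *bcl7a bcl7b*, *brm-3*, *brm-1* and the *brm-3* and *brm-1* triple mutants. In *brm-3* and these triple mutants 16.5%, 22.8% and 18.3% of all genes fell. *APR1*, an APS reductase, was at 1.28 in *bcl7a bcl7b*, 2.59 in *brm-1* and 3.45 in the *brm-1* triple mutant. Of the 6 genes of tryptophan supply and camalexin synthesis, 2 rose in *bcl7a bcl7b* (11.9% of all genes) and 2 in *brm-1* (28.9%). In the *brm-3* triple mutant 4 rose (30.8%), and 5 in the *brm-1* triple mutant (26.9%). In *brm-3* limma called 0 (3 higher and 2 lower at an unadjusted p under 0.05), against 23.5% higher and 16.5% lower. *PAD3*, which completes camalexin, was listed at 0 in all 3 WT libraries and had 285, 559 and 326 in the *brm-1* triple mutant. The tryptophan synthesis genes *ASB1* and *TSA1*, read beside the indole genes, were above *brm-1* by 2.27 and 2.60 in that genotype.

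Of 7 further regulators, limma called 0 in *bcl7a bcl7b* (1 higher at an unadjusted p under 0.05). In *bcl7b* 1 rose and 0 fell, against 1.5% and 0.574% of all genes. In *brm-1* 2 rose, *MYC4* (2.59) and *SDI2* (3.93), and 2 fell, *MYC3* (-0.79) and *MYC2* (-1.07, named after its value was seen). That is 28.6% of the 7 in each direction, against 28.9% and 19.2% of all genes. The MYC genes encode bHLH partners of the MYBs, and SDI2 is a repressor of glucosinolate synthesis induced by sulfur deficiency. *MYC2* had 453, 409 and 552 in WT and 1610, 1821 and 1775 in *bcl7b*. In *bcl7a bcl7b* it had 1518, 403 and 1526, the high values being the averaged pair. *SDI2* had 0, 54.5 and 36.8 in WT and 169, 210 and 205 in *brm-1*, so that its fitted change rests in part on the WT library listed at 0. In the *brm-1* triple mutant 3 regulators rose and 1 fell, against 26.9% and 18.3% of all genes. Of 8 further breakdown genes, 0 rose and 2 fell in *bcl7a bcl7b* (2 higher at an unadjusted p under 0.05), against 11.9% and 10.2% of all genes. In *brm-1* 1 of them rose and 4 fell, against 28.9% and 19.2%. The fallen ones included the nitrile specifier *NSP5* (-1.66 and -2.82), and the risen one was *PEN2* (1.54, named after its value was seen), an atypical myrosinase. *ESP*, also named after its value was seen, had 216, 337 and 579 in WT and 0, 12.6 and 0.748 in *brm-1*. These counts are small, and no test compared these lists with the members.

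Markers of tissues moved in both directions. Of the green tissue markers, *RBCS1A* fell by 1.60 in *brm-3* and 1.56 in *brm-1*, and *CA1* was at -0.82 (called) and -0.64 (not called). In the *brm-3* triple mutant both were called as lower (-2.05 to -1.77), against 22.8% of all genes. In the *brm-1* triple mutant 1 of the 2 was (-1.59 to -0.86), against 18.3%. In *bcl7a bcl7b* 0 were called, and *CA1* had 44962, 17018 and 45016 there, the high values being the averaged pair. Of the phloem markers, *SUC2* was at -2.20 in *brm-3*, -1.22 in *brm-1*, -2.14 in the *brm-3* triple mutant and 0.38 in the *brm-1* triple mutant, and *APL* was at -0.71, 0.29, 1.24 and 2.26 in the same order. Of the root markers, *PYK10* was at 1.05 in *bcl7a bcl7b* and 1.38 in the *brm-1* triple mutant, whereas *EXPA7* was at -1.28 and -2.03 and *COBL9* at -0.87 and -0.31. In *brm-3* both *EXPA7* (-1.51) and *COBL9* (-2.11) were called as lower. Their part in the members' values was not tested.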

How the data were processed

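The deposited table holds normalized counts (a signal, not whole reads) for 33681 genes in 24 libraries. According to the methods, the authors quantified paired-end reads with Salmon (1.5.1 in the submitters' processing notes) against the AtRTD2 transcriptome and normalized all samples with DESeq2 size factors, giving TPM values as its input, so that a normalized count may not be proportional to reads. The depth of a library in reads was not recovered. Of a library's normalized count, 1 was added before taking log2, and limma 3.58.1 (lmFit, eBayes with trend; R 4.3.3) was fitted once to 23 samples and the 21596 genes that reached 10 in 3 or more libraries. That replicates 1 and 3 of *bcl7a bcl7b* are near-identical was known from earlier work on these data. The design planned to average them if this was found again, which gave the 23 samples. Calls needed an adjusted p under 0.05 over all genes and an absolute log2 fold change above 0.6. All 39 members are named. Of other lists, at most the 3 genes with the lowest adjusted p in *bcl7a bcl7b* or *brm-1* are named, beside those marked as named after their values were seen. Members, lists and tests were chosen with earlier results of these data known. The replicates are described as biological, without saying what was pooled. Reads shared between genes were judged by 31-base words of TAIR10.1 transcripts, and strand was not stated. The fit was tested on simulated data. Alternatives covered the pseudocount, the filter, the scale, the thresholds, the groups in the model, a replicate block and leaving out libraries. Leaving out the near-identical pair was chosen after seeing the data.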

Additional observations from a re-analysis of the deposited data

Results flagged for a closer look

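The effect of *bcl7a bcl7b* differed between the *brm-1* and the WT background by the interaction test (limma, adjusted p under 0.05) in 11 members, 6 higher and 5 lower, against 14.7% and 16.5% of all genes, so that the members are near the background. With libraries rescaled to the same total, 3 were higher and 16 lower, against 1022 and 7454 of all 21596 genes. On the log2 scale the difference was 2.94 for *SOT16*, 3.07 for *CYP83B1*, 2.13 for *TGG2*, 1.75 for *CYP79B2*, 1.19 for *SOT18* and 1.18 for *CYP79B3*. It was -2.02 for *GSTU20*, -1.79 for *GGP1*, -1.31 for *MAM1*, -1.11 for *MYB28* and -3.79 for *AOP2*. The first effect lies within 1 set of libraries and the second crosses both sets.

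The effect of *bcl7a* together with *bcl7b* differed from the sum of the single effects in 17 members, 16 higher and 1 lower, against 3.03% and 2.98% of all genes. With only the compared groups in the model 9 calls were left, and the contrast crosses both sets of libraries. The difference was 2.57 for *MYB28*, 2.57 for *BCAT4*, 3.07 for *GSTU20*, 2.19 for *IPMDH1*, 2.14 for *MAM1*, 2.40 for *GGP1*, 1.65 for *CYP83A1*, 3.0 for *BAT5* and 2.44 for *IPMI1*. It was 1.76 for *SUR1*, 1.83 for *CYP79B3*, 3.19 for *FMO GS-OX3*, 5.22 for *AOP2*, 1.39 for *IPMI2*, 4.19 for *MYB29*, -2.10 for *MYB51* and 2.01 for *CYP79F1*.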

How the results depend on the processing

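Of the calls against WT, 4 of 22 in *bcl7a bcl7b*, 9 of 20 in *brm-3*, 19 of 24 in *brm-1*, 19 of 26 in the *brm-3* triple mutant, 28 of 34 in the *brm-1* triple mutant and 1 of 1 in *bcl7b* stood under every alternative. Depth in reads is unknown, so the limits at low values, as in *MYB76* and *GSTF11*, are those of the replicate spread. The cause of the changes was not tested.

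Rescaling to the same total moved the median of all genes by 0.79 to 0.96. In the 5 genotypes concerned it called 10848 to 12045 of all 21596 genes as higher than WT. For non-additivity it called 3072 of all genes as positive and 222 as negative. It gave, higher and lower, 34 and 0 members in *bcl7a bcl7b* (median 2.20), 23 and 2 in *brm-3* (0.95), 29 and 1 in *brm-1* (2.33), 34 and 0 in the *brm-3* triple mutant (2.71), 35 and 0 in the *brm-1* triple mutant (3.14) and 0 and 4 for *brm-1* against *bcl7a bcl7b*, with 27 calls for non-additivity and 19 for the interaction. It turned the sign in *brm-3* of *SOT16* (0.16), *UGT74C1* (0.77), *BCAT4* (0.87), *IPMI LSU1* (0.79), *CYP83B1* (0.041), *CYP79B2* (0.77) and *TGG1* (0.21). It did so in *brm-1* for *CYP83B1* (0.20) and *CYP79B2* (0.045), in the *brm-3* triple mutant for *SOT18* (0.86), *CYP79B3* (0.16), *CYP79B2* (1.02) and *TGG1* (0.78), and in the *brm-1* triple mutant for *TGG2* (0.075). Without the 100 highest genes in the total, the *bcl7a bcl7b* median was 1.58, *brm-1* had 1 member lower, and *brm-1* against *bcl7a bcl7b* had 0 higher and 5 lower. Quantile normalization gave 0 lower in the *brm-1* triple mutant, 1 lower for *brm-1* against *brm-3*, and 1 higher and 4 lower for *brm-1* against *bcl7a bcl7b*.

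With only the compared groups, *bcl7a bcl7b* had 4 higher and 0 lower, the *brm-1* triple mutant 0 lower against WT and 2 lower against *brm-1*, *brm-1* 1 lower against *brm-3*, and non-additivity 9 calls. An adjusted p under 0.01 left 12 higher in *bcl7a bcl7b*, 1 lower in *brm-1*, 0 lower in the *brm-1* triple mutant and 0 higher for *brm-1* against *bcl7a bcl7b*. A log2 fold change above 1 left 4 lower in *brm-3*, 1 in *brm-1*, 1 in the *brm-3* triple mutant, 0 in the *brm-1* triple mutant and 1 higher for *brm-1* against *bcl7a bcl7b*, where no filter also gave 1. Without the near-identical pair, *bcl7a bcl7b* had 12 higher (median 0.97), and *brm-1* against it 0 higher and 1 lower.

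Leaving out single libraries gave 0 to 1 higher and 0 to 2 lower in *bcl7a*, 0 to 2 lower in *bcl7b*, 16 to 21 higher in *bcl7a bcl7b* (median 1.18 to 1.38), 1 to 3 lower in *brm-1*, 0 to 2 lower in the *brm-1* triple mutant, 0 to 3 higher and 2 to 3 lower for *brm-1* against *bcl7a bcl7b*, 13 to 21 for non-additivity and 9 to 14 for the interaction. *GSTF11* in *bcl7b* lay between -1.52, without WT replicate 1, and 2.02, without WT replicate 2.

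Samples with the same replicate number did not deviate together (r from -0.0723 to 0.115, median 0.00466, over 84 pairs), so the numbers do not pair them. With a replicate block and all 24 libraries, 27 members were higher in *bcl7a bcl7b*, as without the block, and 22 in *brm-1*, against 21.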
